A study of Mus musculus with 15 samples.

Results

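This comparison sets the bulk RNA of mouse skeletal muscle stem cells taken after 120 minutes of tissue dissociation (T120) against that of the same cell type taken from intact muscle (T0). Its members are all libraries of those labels, 4 at T120 and 4 at T0, of 22 bulk libraries in the series, and all 8059 genes that the deposited table lists. The T120 muscle was dissociated with collagenase and dispase, enzymes that digest the matrix around cells, and the T0 muscle was intact. Both were fixed with PFA, per the labels. The labels give the time points without a unit, taken here as minutes, and no strain, age or sex. RNA was extracted with a kit for formalin-fixed material and read as 65-base single reads from stranded total RNA libraries on an Illumina HiSeq. The sources used here do not give the sort of the cells. The series has 15 labelled samples, of which 6 are bulk. The other 9 were not analysed here. Libraries carry the letters A to D. Nothing says that they came from separate animals or cultures, so the p-values measure the spread between these libraries, which may be technical.

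Muscle stem cells, or satellite cells, lie between the muscle fibre and its basement membrane and are quiescent in adult muscle. They are marked by the transcription factor Pax7. After damage they leave quiescence: immediate early transcription factors, which need no new protein to be switched on, come first, and the myogenic factor Myod1, ribosome production and growth follow. Enzymatic dissociation cuts the cells from this niche, and the cells go on transcribing while it lasts.

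The T120 libraries held 8647622 to 20529272 counts over the listed genes and the T0 libraries 2974294 to 9745758. Pearson correlations of log CPM (counts scaled to library size, with TMM factors) ran from 0.958 to 0.976 among T120 libraries, from 0.953 to 0.969 among T0 libraries and from 0.662 to 0.723 between the groups. Library 120B stood apart on the first principal component, which held 66.5% of the variance over 22 libraries: it lay at 44.6 and the other T120 libraries at 63.3 to 65.3. Genes chosen as ones that satellite cells are not known to use also had counts. This background was measured as CPM per kb of exon over the 8 listed genes of 41 chosen as long and tissue-restricted. It averaged 1.83 ± 0.381 at T120 and 4.81 ± 0.895 at T0 (SD, n = 4 each). The groups did not overlap with or without Ryr3, and the two-sided exact permutation p was 0.0286 each time, the smallest that 4 against 4 libraries allow. The lowest mean normalized count listed was 98.4, so weakly counted genes of the 41 are missing. Those listed may have passed only through libraries where they were high. The difference and its p are thus no independent evidence of a higher background at T0. Of these 8 genes, Ryr3 had 117 to 169 CPM in the T120 libraries and 291 to 455 CPM in the T0 libraries. Piezo2 had 60.7 to 111 CPM at T120 and 47.8 to 111 CPM at T0. These levels lay above the median gene's 45.3 CPM at T120 and 46.1 CPM at T0. The 8-gene background may thus hold expression of these genes, which was not tested. Another 4 (Muc16, Mroh2a, Pclo and Dnah8) were nearly silent in 3 of 4 T120 libraries. Over these 4, picked after their values were seen, the background came to 0.478% to 12.8% of the median gene's density at T120, highest in 120B, and to 15.3% to 44.3% at T0. Falls at T120 thus moved with a lower background. Each fall named below was tested again after subtraction of this 4-gene background, and a named gene that lost its call is marked. Genes that dropped out of the fit after subtraction, such as Gm37985, could not be tested again.

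The satellite cell markers were present in every library. Pax7, Myf5, Vcam1, Itga7, Cdh15, Calcr, Sdc4 and Cxcr4 all had at least 70.7 CPM in each of the 8 libraries. Among markers of other cells, 1 immune gene of 14 (Cd68) and 0 of 6 red blood cell genes were listed, while 7 of 13 endothelial markers were, with a summed level of 371 to 695 CPM at T120 and 189 to 307 CPM at T0.

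Most listed genes differed. At an adjusted p under 0.05 in edgeR's quasi-likelihood test, 3003 genes were higher at T120 (37.3% of 8059) and 3184 were lower (39.5%). Together these were 6187 genes, or 76.8%. Counts of list members given below are to be read against these 37.3% and 39.5%. Counts against T60 are to be read against 28.4% up and 32.0% down. At least 2-fold changes were called for 1494 genes upward (18.5%) and 1645 downward (20.4%), 39.0% in all. The 4 T120 libraries all lay above the 4 T0 libraries for 2816 genes (34.9%) and below them for 2938 (36.5%), 71.4% in all. The median log2 fold change over all genes was -0.08 and its median size 0.80. Scaled to library totals in place of TMM factors, the median fold change moved by -0.38 on the log2 scale, and the split became 2074 up (25.7%) and 4219 down (52.4%). After subtraction of the 4-gene background 2234 genes were up (27.7%) and 1894 down (23.5%). Of the 3003 genes called up, 2110 were still called up after that subtraction, and of the 3184 called down, 1720 were still called down and 22 turned up. With library 120B left out, 2924 were up and 3153 down. The genes at least 2-fold up had a median level of 142 CPM at T120 and 42.5 CPM at T0, and those at least 2-fold down 13.4 CPM at T120 and 41.0 CPM at T0.

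**Figure D1:**
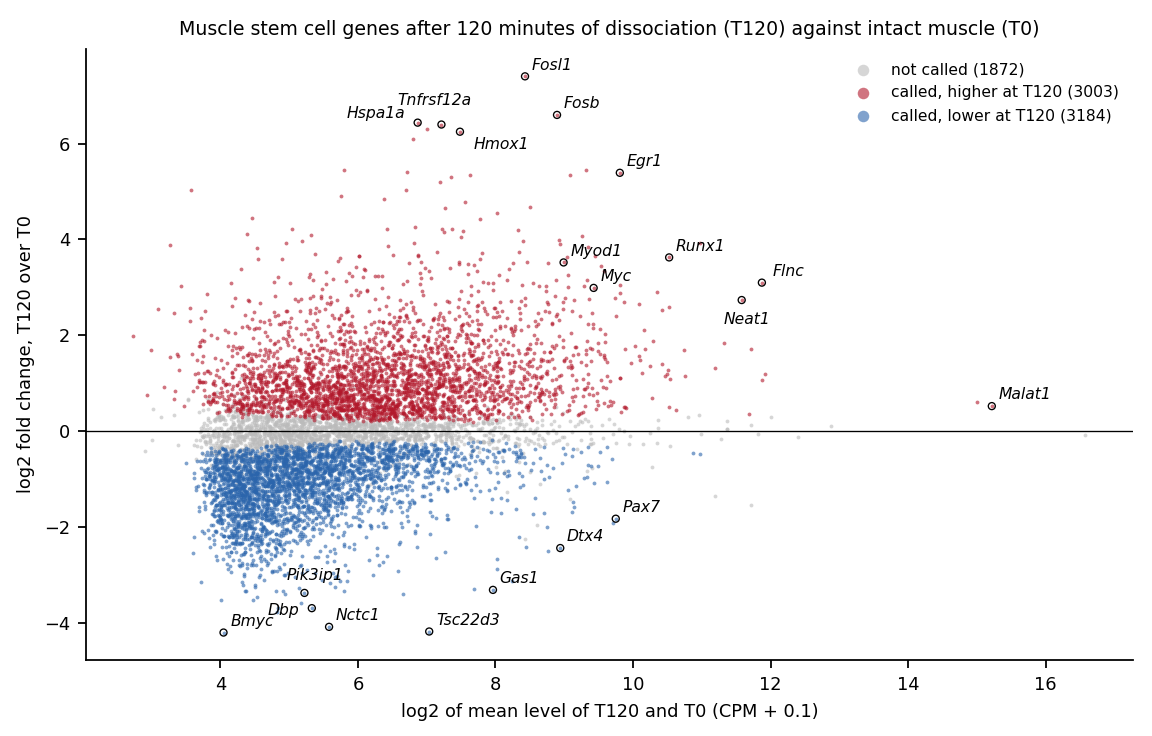
Fold change of each of the 8059 listed genes (log2, T120 over T0) against its mean level in both groups (log2 CPM). Red points were called higher at T120 (3003), blue points lower (3184) and grey points were not called (1872), and circles mark genes named in the text, from Fosl1 at 7.40 to Bmyc at -4.21.

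The genes with the largest rises were transcription factors of the AP-1 and EGR families, inducible heat shock genes, a cytokine receptor and the heme-degrading enzyme Hmox1. Fosl1, an AP-1 subunit (chromosome 19, 5447547 to 5455946, build mm10), had 788, 629, 656 and 666 CPM in the T120 libraries, against 8.09, 2.09, 6.42 and 1.44 CPM in the T0 libraries. All 4 T120 libraries were near each other and far above T0, with a log2 fold change of 7.40 ± 0.57 (adjusted p = 3.16e-10). Exons of genes on the other strand cover 57.2% of the Fosl1 exon bases, and the sources used here do not say if reads were counted by strand. Tnfrsf12a, the receptor of the cytokine TWEAK, had 364, 222, 342 and 246 CPM in the T120 libraries, against 3.39, 2.78, 3.91 and 3.78 CPM in the T0 libraries. No T0 library came near the lowest T120 library, with a log2 fold change of 6.40 ± 0.21 (adjusted p = 8.70e-15). Emp1, a membrane protein with 4 spans, rose by 5.44 ± 0.27, Pim1, a kinase gene, by 5.30 ± 0.29, Fgl2, of the fibrinogen-like family, by 5.44 ± 0.40, Asb5, a SOCS-box protein gene, by 5.34 ± 0.26, and the predicted gene Gm14636 by 5.35 ± 0.36 (highest adjusted p of the 5 = 1.42e-10). In each of these 5 genes the lowest T120 library lay above the highest T0 library. The rule that picked them required this, so it is no added evidence.

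By gain in CPM, which favours abundant transcripts, the nuclear long non-coding RNA Malat1 and the predicted gene Gm26917 were first. Malat1 averaged 44884 ± 5005 CPM at T120 and 31325 ± 5254 CPM at T0 (SD, n = 4 each), with a log2 fold change of 0.52 ± 0.17, and Gm26917 averaged 39612 ± 3281 CPM at T120 and 26189.6 ± 5268 CPM at T0, with 0.60 ± 0.16. Both were called up, but neither call held after background subtraction. Flnc, the actin cross-linker filamin C of muscle, had 6981, 6378, 6499 and 7029.5 CPM in the T120 libraries, against 869.6, 765, 709 and 799 CPM in the T0 libraries, with no overlap and a log2 fold change of 3.10 ± 0.15 (adjusted p = 5.64e-13). Neat1, the long non-coding RNA that scaffolds paraspeckles, averaged 5324 ± 697 CPM at T120 and 801 ± 35.1 CPM at T0 and rose by 2.73 ± 0.16. Runx1, a transcription factor, averaged 2727 ± 226 CPM at T120 and 221 ± 35.6 CPM at T0 and rose by 3.62 ± 0.20. Fgfr1, the receptor of fibroblast growth factors, rose by 1.83 ± 0.15 and Ahnak, a large scaffold protein, by 1.06 ± 0.13.

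**Figure D2:**
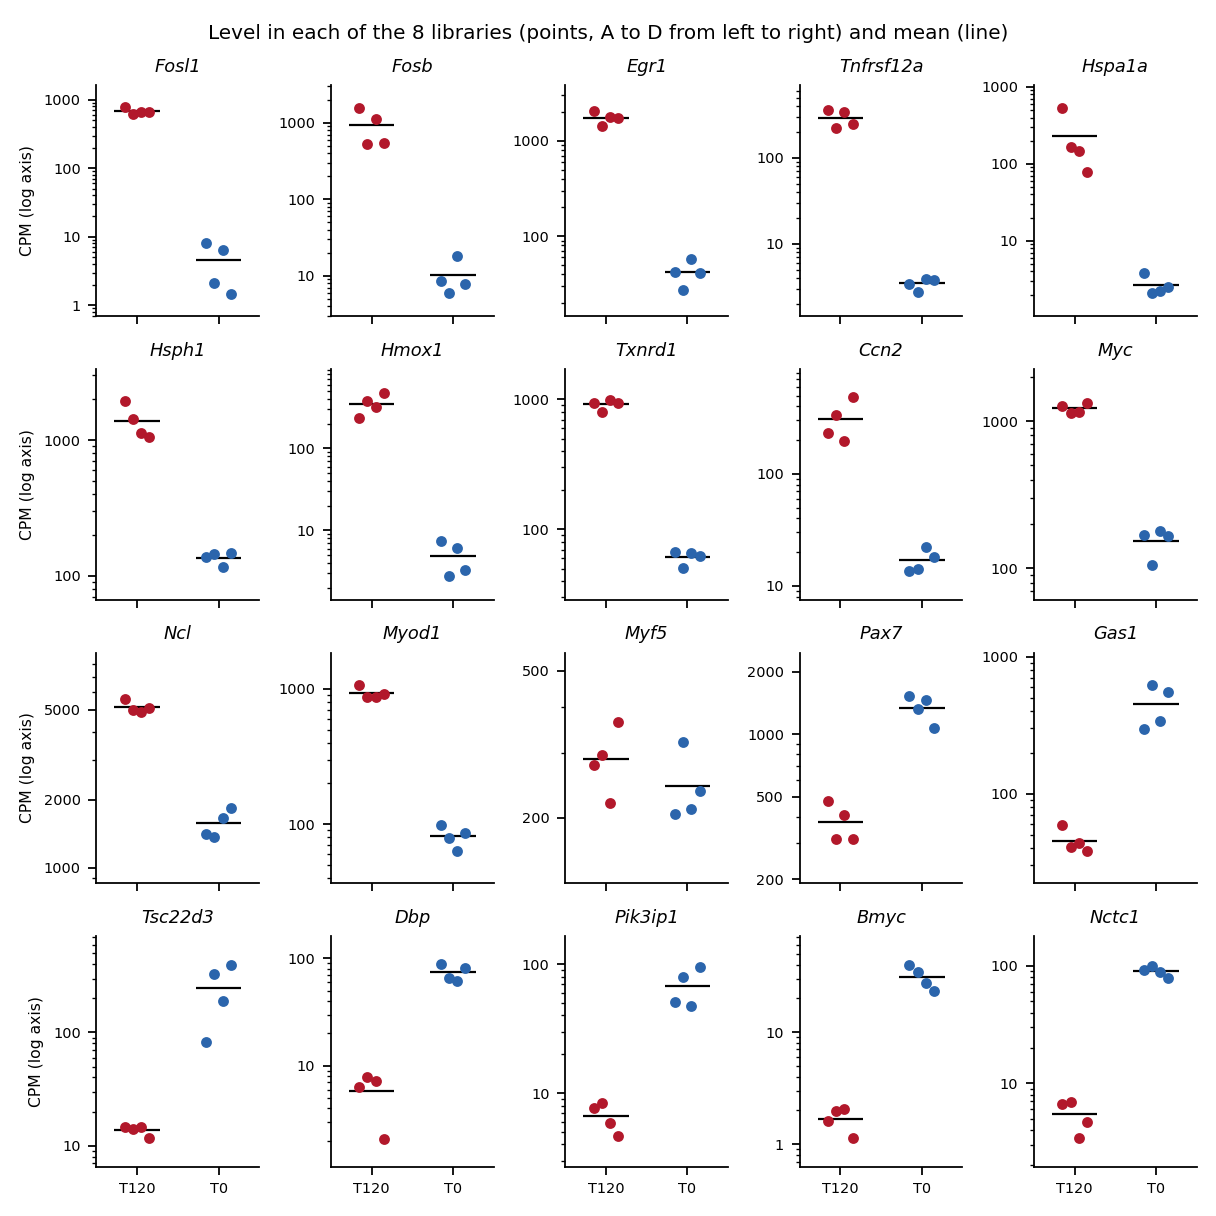
Level of 20 genes (CPM, log axis) in the 4 T120 libraries (red, left) and the 4 T0 libraries (blue, right), with the group mean as a line. The groups are apart in 19 of the 20 panels; for Myf5 they overlap.

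Immediate early genes were higher at T120 almost without exception. Of 31 listed members 30 rose and 1, Klf10 (-0.78 ± 0.29), fell, a call lost after background subtraction, against 37.3% and 39.5% of all genes, and their median log2 fold change was 3.38. Fosb had 1558, 534, 1126 and 549 CPM in the T120 libraries, against 8.47, 5.91, 18.2 and 7.82 CPM in the T0 libraries. Libraries 120A and 120C were higher than 120B and 120D, and all were far above T0, with a log2 fold change of 6.60 ± 0.40 (adjusted p = 1.04e-11). Egr1, a zinc finger factor of the growth factor response, had 2057, 1439.5, 1785 and 1723 CPM in the T120 libraries, against 42.5, 27.1, 57.0 and 41.2 CPM in the T0 libraries, without overlap, and rose by 5.39 ± 0.27. Fos had 471, 180.4, 295 and 186 CPM in the T120 libraries, against 9.03, 4.87, 11.2 and 6.65 CPM in the T0 libraries. Fos again was highest in 120A and 120C, and it rose by 5.20 ± 0.41 (adjusted p = 3.91e-10). Csrnp1, a nuclear protein gene induced by AXIN, rose by 6.10 ± 0.38 and Ier5, a regulator of the heat shock factor, by 5.40 ± 0.40. Named after their values were seen, the AP-1 genes Junb (4.77 ± 0.29), Jund (2.59 ± 0.20) and Jun (1.77 ± 0.33), the orphan receptor Nr4a1 (4.65 ± 0.36), the stress factor Atf3 (5.02 ± 0.37) and Zfp36 (4.42 ± 0.23), which destabilises AU-rich mRNAs, were called up as well. Other-strand exons cover 52.6% of the Jund exon bases.

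Most immediate early genes were lower at T120 than at T60. Between these times, a contrast that shares the T120 libraries with the first and called 2289 genes up (28.4%) and 2575 down (32.0%), 60.4% in all, 22 of the 31 immediate early genes were lower at T120 and 4 were higher. Fos averaged 283 ± 136 CPM at T120 and 2128 ± 1016 CPM at T60 (SD, n = 4 each), and its log2 fold change was -2.91 ± 0.35 (adjusted p = 8.01e-07). Jun had -2.45 ± 0.33 (adjusted p = 3.19e-06), Fosb -2.58 ± 0.32 (adjusted p = 1.28e-06), Junb -2.03 ± 0.25 (adjusted p = 8.73e-07) and Egr1 -1.38 ± 0.23 (adjusted p = 3.41e-05) in the same contrast. Fosl1 went the other way, with 685 ± 70.8 CPM at T120 and 80.6 ± 31.4 CPM at T60, a log2 fold change of 3.09 ± 0.43 (adjusted p = 5.16e-06). Ier5 was also higher at T120 than at T60, by 2.08 ± 0.32 (adjusted p = 1.21e-05). At T120 the AP-1 genes thus stood in a different proportion than at T60, with Fosl1 higher and Fos, Fosb, Jun and Junb lower.

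**Figure D3:**
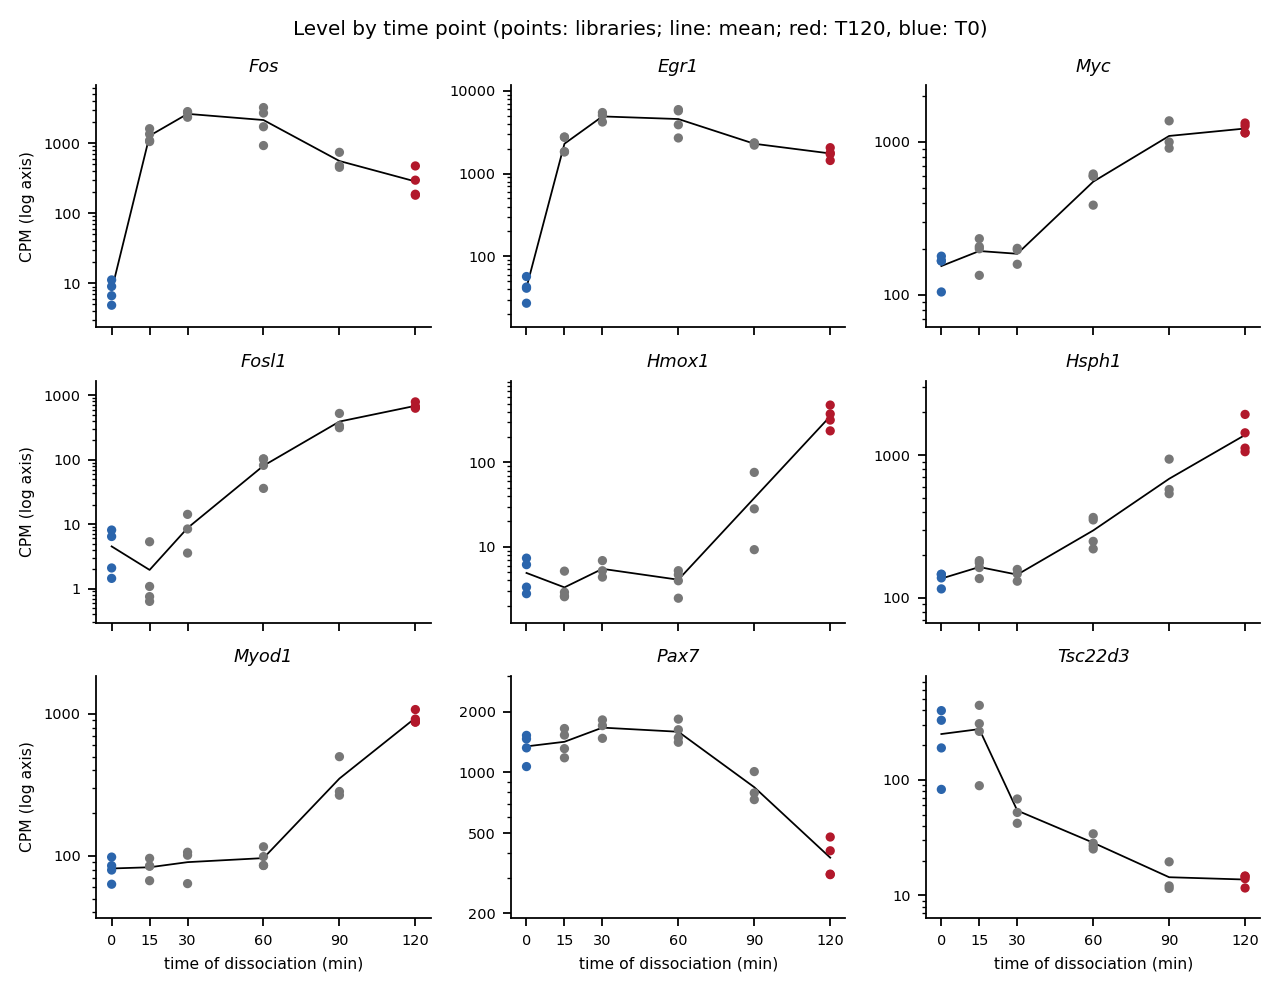
Level of 9 genes (CPM, log axis) in each library over the 6 time points of dissociation (minutes), with the mean as a line, T0 in blue and T120 in red. Fos and Egr1 are highest at 30 minutes, Hmox1 is near its T0 level up to 60 minutes and averages 353 CPM at T120, and Pax7 is lowest and Myod1 highest at T120.

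MAP kinase feedback genes, which damp the growth factor signal, rose with them: 9 of 12 rose and 2 fell (median 1.53). Errfi1, a brake on the EGF receptor, had 3926, 3223, 3859 and 4086 CPM in the T120 libraries, against 201, 239, 287 and 266 CPM in the T0 libraries, with no overlap, and rose by 3.93 ± 0.22 (adjusted p = 2.86e-12). The phosphatase genes Dusp10 (2.91 ± 0.22), Dusp5 (2.78 ± 0.39) and Dusp1 (2.48 ± 0.16), which switch off MAP kinases, were called up. The members that fell were Spred2 and Spry1, an inhibitor of receptor tyrosine kinases that quiescent satellite cells express. Spry1 had 78.8, 163, 86.5 and 132 CPM in the T120 libraries, against 333, 427, 366 and 364 CPM in the T0 libraries. Its T120 libraries all lay below T0, and it fell, with a log2 fold change of -1.70 ± 0.21 (adjusted p = 3.78e-07).

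Genes of NF-kB and cytokine signalling, the pathways that carry inflammatory signals to the nucleus, had 20 of 21 members up, 0 down and 1 not called (median 2.33). Cxcl1, a chemokine that attracts neutrophils, had 159, 66.2, 73.9 and 115 CPM in the T120 libraries, against 2.26, 4.69, 5.59 and 2.25 CPM in the T0 libraries, with no overlap, and rose by 4.91 ± 0.47 (adjusted p = 6.90e-09). Stat3, the transcription factor of interleukin-6 family cytokines, had 1557, 1024, 1388 and 1191 CPM in the T120 libraries, against 106, 103, 116 and 87.3 CPM in the T0 libraries. Its T120 libraries were all more than 1000 CPM and its T0 libraries near 100 CPM, and it rose by 3.65 ± 0.19 (adjusted p = 1.30e-12). Cebpb, a factor that acts with it in the acute phase response, rose by 3.74 ± 0.35. The NF-kB subunit genes Nfkb1 (2.82 ± 0.18) and Nfkb2 (2.33 ± 0.17), their inhibitor Nfkbia (2.30 ± 0.21), its relative Bcl3 (3.14 ± 0.26) and the cytokine signalling inhibitor Socs3 (3.42 ± 0.31) were called up. Tnfaip3, a deubiquitinase that ends NF-kB signalling, averaged 64.0 ± 24.02 CPM at T120 and 51.8 ± 3.63 CPM at T0 and was not called (0.30 ± 0.21, adjusted p = 0.21). Against T60, Nfkb1 was higher at T120 (1.34 ± 0.17, adjusted p = 1.93e-06) and Socs3 lower (-2.46 ± 0.28, adjusted p = 3.75e-07), while Nfkbia did not pass the test (-0.07 ± 0.19, adjusted p = 0.763). The promoter of Cxcl1 holds 3 matches of the NF-kB motif, which overlap in part (GGG and TTCC, 3 bases apart, on either strand; capitals), from 89 to 70 bases before the start. It is shown as a member that rose and holds the motif more than once. Promoters are those of a RefSeq table (GRCm38.p6), 250 bases before to 50 after each start.
Cxcl1, chr5:90890995-90891294, plus strand: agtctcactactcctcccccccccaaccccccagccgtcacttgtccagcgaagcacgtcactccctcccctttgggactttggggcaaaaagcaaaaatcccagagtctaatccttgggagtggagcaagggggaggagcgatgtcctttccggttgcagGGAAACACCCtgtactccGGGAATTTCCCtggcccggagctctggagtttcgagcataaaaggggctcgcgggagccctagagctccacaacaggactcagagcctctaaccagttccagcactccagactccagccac
This motif was found in 6 of 17 members with a promoter in the table (35.3%), against 7.10% of 6141 listed genes with one and 6.31% of all 27025 genes in it. Among genes called at least 2-fold it was in 7.64% of those up and 5.79% of those down. A match is a string of letters and not a measured site.

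Targets of mechanical and actin signalling through YAP and SRF moved mostly upward: 17 of 21 rose and 2 fell (median 1.06). Thbs1, a matrix glycoprotein gene, had 746, 498, 388 and 361 CPM in the T120 libraries, against 21.8, 15.1, 24.9 and 23.0 CPM in the T0 libraries, without overlap, and rose by 4.56 ± 0.34 (adjusted p = 1.70e-10). Ccn2, a classical YAP target also known as Ctgf, averaged 312 ± 128 CPM at T120 and 17.0 ± 4.08 CPM at T0 (SD, n = 4 each) and rose by 4.21 ± 0.28, and its relative Ccn1 rose by 3.17 ± 0.24. Against T60 these relatives parted: Ccn2 was higher at T120, by 2.16 ± 0.24 (adjusted p = 3.34e-07), and Ccn1 was lower, with -1.89 ± 0.21 (adjusted p = 2.80e-07). The cytoplasmic actin gene Actg1, which has many near-identical pseudogenes, rose by 2.54 ± 0.30 at levels of 14.4 CPM at T120 and 2.47 CPM at T0.

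Heat shock genes were mostly higher at T120. Of 22 heat shock genes 20 rose and 0 fell (median 1.34), and 18 of the 22 were higher at T120 than at T60. Ahsa1 and Chordc1, which are co-chaperones of HSP90, were not called against T0, though Chordc1 was higher than at T60, by 0.79 ± 0.14 (adjusted p = 6.15e-05). Hspa1a, the inducible HSP70 gene, had 531, 167, 147 and 78.4 CPM in the T120 libraries, against 3.76, 2.09, 2.23 and 2.52 CPM in the T0 libraries, and its near-identical neighbour Hspa1b had 546, 223, 163 and 79.5 CPM in the T120 libraries, against 3.76, 3.65, 3.07 and 2.52 CPM in the T0 libraries. Between these copies the authors' counting may have divided reads, so the split between them is uncertain. Library 120A was highest for both and 120D lowest, but no T120 library came near T0, and the log2 fold changes were 6.44 ± 0.55 (adjusted p = 1.28e-09) and 6.31 ± 0.54 (adjusted p = 1.27e-09). Hsph1, the nucleotide exchange factor HSP110, had 1932, 1435, 1121 and 1058 CPM in the T120 libraries, against 138, 146, 115 and 146 CPM in the T0 libraries. It, too, was without overlap, rose by 3.35 ± 0.22 (adjusted p = 3.09e-11) and was higher than at T60, by 2.23 ± 0.21 (adjusted p = 5.00e-08). Bag3, a co-chaperone that hands damaged proteins to autophagy, rose by 3.84 ± 0.18. The abundant cytosolic HSP90 genes Hsp90aa1 and Hsp90ab1 rose by 3.25 ± 0.20 and 1.19 ± 0.15, and constitutive Hspa8 by 2.02 ± 0.22. The mitochondrial chaperonin genes Hspd1 (0.82 ± 0.15) and Hspe1 (1.01 ± 0.24) had smaller rises, and the call of Hspe1 was lost after 8-gene background subtraction. Hsf1, the transcription factor that drives this response, had 0.50 ± 0.09 and was called up, but not after background subtraction.

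The heat shock element, the motif HSF1 is known to bind (GAA, TTC and GAA, each 2 bases apart, on either strand), was in the promoters of 5 of 16 heat shock genes that have one in the table (31.25%), against 0.668% of listed genes and 0.662% of all genes in the table. Among genes called at least 2-fold, the element was in 0.791% of those up and 0.952% of those down. Promoters of Hspe1 and Hsph1 are shown as members that rose and hold it, with its bases in capitals.
Hspe1, chr1:55087898-55088197, plus strand: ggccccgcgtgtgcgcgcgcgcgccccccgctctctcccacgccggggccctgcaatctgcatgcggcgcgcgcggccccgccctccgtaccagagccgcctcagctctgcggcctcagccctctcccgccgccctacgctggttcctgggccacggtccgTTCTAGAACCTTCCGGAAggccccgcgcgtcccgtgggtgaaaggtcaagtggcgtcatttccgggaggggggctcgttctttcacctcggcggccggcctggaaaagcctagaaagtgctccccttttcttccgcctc
Hsph1, chr5:149636266-149636565, minus strand: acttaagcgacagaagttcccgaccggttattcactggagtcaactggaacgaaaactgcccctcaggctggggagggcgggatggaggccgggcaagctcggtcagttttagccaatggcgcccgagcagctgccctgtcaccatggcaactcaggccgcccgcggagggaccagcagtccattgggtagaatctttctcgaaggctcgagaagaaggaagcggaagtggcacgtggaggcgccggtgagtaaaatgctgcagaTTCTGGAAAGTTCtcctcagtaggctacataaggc
In Hspe1 a pair of matches on opposite strands overlap, starting 89 and 84 bases before the transcription start. Hspd1 lies next to it on the other strand, and 1 of its windows (chr1:55087883-55088182) holds the same bases, so this site counts for both genes among the 5. In Hsph1 the match starts 15 bases after the start. Only this motif is in capitals here.

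The integrated stress response, in which Atf4 is translated when initiation slows, had 10 of 16 members up and 3 down (median 1.32), against 37.3% and 39.5% of all genes. Atf4 itself had 778, 622, 745 and 859 CPM in the T120 libraries, against 109, 92.0, 89.9 and 106 CPM in the T0 libraries, with no overlap, and rose by 2.92 ± 0.14 (adjusted p = 6.79e-13). Ppp1r15a, the phosphatase subunit that restarts translation, rose by 3.99 ± 0.20, and the amino acid transporter genes Slc7a1 and Slc7a5 by 2.27 ± 0.26 and 2.12 ± 0.20. Ddit3, the death-associated factor CHOP, averaged 20.4 ± 1.87 CPM at T120 and 24.4 ± 1.77 CPM at T0 and was not called (-0.25 ± 0.21). Ddit4, an inhibitor of mTORC1 signalling, fell, with a log2 fold change of -1.75 ± 0.41 (adjusted p = 6.13e-04). Of 20 genes for endoplasmic reticulum chaperones and sensors 16 rose and 3 fell (median 0.85). Hspa5, the chaperone BiP, averaged 1622 ± 106 CPM at T120 and 251 ± 34.7 CPM at T0 (SD, n = 4 each) and rose by 2.69 ± 0.14 (adjusted p = 1.10e-12), Dnajb9, its co-chaperone, by 3.13 ± 0.19, and the stress sensor genes Atf6 and Ern1 by 2.50 ± 0.12 and 2.23 ± 0.16. Those that fell were Sel1l, Pdia4 and Herpud1. All 8 subunit genes of the CCT chaperonin, the cage that folds actin and tubulin, rose, though by small steps (median 0.89), led by Cct7 (1.28 ± 0.12) and Cct3 (1.26 ± 0.13). After 4-gene background subtraction 6 of the 8 were called up, against 27.7% of all genes. Proteasome subunit genes had 19 of 38 up and 4 down (median 0.34), against 37.3% and 39.5% of all genes. Scaled to library totals they had 10 up and 11 down, against 25.7% and 52.4% of all genes. Psmd11, a regulatory particle subunit, rose by 1.78 ± 0.08 with the T120 libraries between 209 and 244 CPM and the T0 libraries between 62.6 and 65.9 CPM.

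The antioxidant and metal response driven by the factor NRF2 (gene Nfe2l2) had 15 of 22 members up and 3 down (median 1.67). Hmox1 had 237, 376, 318 and 479 CPM in the T120 libraries, against 7.34, 2.78, 6.15 and 3.33 CPM in the T0 libraries. No T0 library reached 8 CPM, no T120 library was under 200 CPM, and the log2 fold change was 6.25 ± 0.52 (adjusted p = 8.05e-10). This rise was late: Hmox1 averaged 353 ± 102 CPM at T120 and 4.07 ± 1.19 CPM at T60 (SD, n = 4 each), and its log2 fold change over T60 was 6.43 ± 0.50 (adjusted p = 5.45e-09). Srxn1, which repairs oxidised peroxiredoxins, had 169.8, 191, 198 and 301 CPM in the T120 libraries, against 12.6, 10.6, 15.6 and 7.55 CPM in the T0 libraries, with no overlap, and rose by 4.26 ± 0.34 (adjusted p = 4.51e-10). Txnrd1, the reductase of thioredoxin, averaged 917 ± 80.6 CPM at T120 and 61.5 ± 7.74 CPM at T0 and rose by 3.90 ± 0.16. Gclm, the modifier subunit of glutathione synthesis, rose by 2.41 ± 0.23, and the metallothionein genes Mt1 and Mt2, which bind zinc and copper, by 3.52 ± 0.25 and 3.07 ± 0.19. Other-strand exons cover 73.5% of the Mt2 exon bases. Nfe2l2 rose by 1.25 ± 0.14. Keap1, which targets NRF2 for degradation, fell, with a log2 fold change of -1.54 ± 0.17 (adjusted p = 7.66e-08), a call lost after background subtraction.

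The antioxidant response element (TGACNNNGC, either strand) was in the promoters of 10 of 19 members in the table (52.6%), against 17.4% of listed genes and 13.99% of all genes. Among genes called at least 2-fold, this element was in 20.1% of those up and 16.3% of those down. Srxn1 and Txnrd1 are shown as members that rose and hold it.
Srxn1, chr2:152105274-152105573, plus strand: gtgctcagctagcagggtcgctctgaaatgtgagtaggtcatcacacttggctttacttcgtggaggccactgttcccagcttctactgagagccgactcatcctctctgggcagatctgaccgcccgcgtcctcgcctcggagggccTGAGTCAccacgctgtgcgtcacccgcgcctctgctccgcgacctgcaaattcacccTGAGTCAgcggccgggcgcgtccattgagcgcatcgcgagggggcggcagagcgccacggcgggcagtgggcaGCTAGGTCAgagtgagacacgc
Txnrd1, chr10:82858956-82859255, plus strand: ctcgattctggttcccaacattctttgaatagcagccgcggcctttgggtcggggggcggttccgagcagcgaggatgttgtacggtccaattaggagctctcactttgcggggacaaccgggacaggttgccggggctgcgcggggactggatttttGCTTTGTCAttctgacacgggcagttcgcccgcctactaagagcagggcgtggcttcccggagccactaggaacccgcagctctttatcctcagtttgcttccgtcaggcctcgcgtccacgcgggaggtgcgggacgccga
Capitals mark the element and, in Srxn1, 2 AP-1 motifs (TGANTCA) that start 102 and 45 bases before the start. The letters of these motifs can overlap each other, but in these windows they do not. The element starts 28 bases after the Srxn1 start and 92 bases before this Txnrd1 start, on the other strand in each. The AP-1 motif was in 4 of the 19 members (21.1%) and in 5.68% of listed genes.

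Ribosome biogenesis genes were mostly higher at T120, and so was Myc. Myc, the transcription factor that drives ribosome production, had 1272, 1144, 1146 and 1328 CPM in the T120 libraries, against 167, 104, 179 and 166 CPM in the T0 libraries. T120 libraries were close to each other and lay well above T0, and Myc rose by 2.99 ± 0.20 (adjusted p = 4.58e-11). Of 38 ribosome biogenesis genes 34 rose and 0 fell (median 1.35), and 33 were higher at T120 than at T60. Ncl, the nucleolar protein nucleolin, had 5575, 4982, 4877 and 5121 CPM in the T120 libraries, against 1408, 1374, 1657 and 1841 CPM in the T0 libraries, without overlap, and rose by 1.71 ± 0.15 (adjusted p = 1.99e-09). Nop58, of the snoRNA particles that methylate ribosomal RNA, rose by 2.55 ± 0.16, Nolc1, a nucleolar phosphoprotein gene, by 2.46 ± 0.11, the RNA helicase gene Ddx21 by 2.23 ± 0.15 and Rrp9, of the processome that cleaves the precursor RNA, by 2.01 ± 0.25. The members not called were Utp20, Ltv1, Wdr12 and Polr1a. By library totals Utp20, Wdr12 and Polr1a were called down, and Polr1a was also called down after both background subtractions. The E-box CACGTG, which MYC and clock factors bind, was in 7 of 32 promoters of these genes (21.9%), against 13.0% of listed genes. It was in 14.9% of genes at least 2-fold up and 13.6% of those at least 2-fold down.

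Ribosomal protein genes moved far less than the assembly factors: 37 of 79 rose, 0 fell and 42 were not called (median 0.39). The counts depend on the scaling, with 18 up and 10 down by library totals, against 25.7% and 52.4% of all genes. After 4-gene background subtraction 19 were up and 3 down, against 27.7% and 23.5% of all genes. Rpl27 rose by 2.30 ± 0.18 and Rps6 by 1.71 ± 0.17. Many of these genes have processed pseudogenes that can share their reads. Translation initiation factors had 28 of 40 up and 5 down (median 0.58). Eif1a, which helps the ribosome to scan, had 254, 184, 242 and 235 CPM in the T120 libraries, against 24.7, 21.0, 22.1 and 19.4 CPM in the T0 libraries. The groups were wide apart, with a log2 fold change of 3.40 ± 0.13 (adjusted p = 9.47e-14). The cap-binding Eif4e rose by 2.30 ± 0.14, Eif2s2, a subunit of eIF2, by 2.07 ± 0.09, and Eif5a by 2.00 ± 0.15. Of 20 cytosolic tRNA synthetase genes 12 rose and 4 fell, against 37.3% and 39.5% of all genes, with Cars at 1.56 ± 0.15, Aars at 1.30 ± 0.14 and Mars at -1.23 ± 0.15. Polyamine, nucleotide and one-carbon genes had 16 of 25 up and 6 down (median 0.97), against 37.3% and 39.5% of all genes. They were led by Odc1 (3.27 ± 0.24), the first enzyme of polyamine synthesis, Azin1 (3.02 ± 0.14), which keeps it from degradation, Sat1 (2.50 ± 0.18), which acetylates polyamines, and Prps1 (2.37 ± 0.17), which makes the ribose precursor of nucleotides.

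Other parts of gene expression were mixed. Nuclear transport genes had 12 of 27 up and 9 down, near the shares over all genes. By library totals they had 12 up and 13 down, against 25.7% and 52.4% of all genes. Those with large rises were the importin genes Kpna1 (2.61 ± 0.13) and Kpna4 (2.33 ± 0.13) and the nuclear pore genes Nup98 (2.51 ± 0.13) and Nup153 (2.46 ± 0.12). Of 18 Srsf and Sf3 splicing factor genes 15 rose and 3 fell (median 0.85), with Srsf10 at 1.67 ± 0.14, Srsf3 at 1.62 ± 0.13 and Sf3b1 at 1.45 ± 0.15; the 3 that fell were Sf3a1, Sf3a3 and Sf3b2. Histone methyltransferase and demethylase genes had 27 of 40 up and 9 down (median 0.65), against 37.3% and 39.5% of all genes. Kdm6b, which removes methyl groups from lysine 27 of histone H3, had 1950.1, 1169, 1673 and 1159.9 CPM in the T120 libraries, against 205, 211, 211 and 241 CPM in the T0 libraries. No library overlapped, and Kdm6b rose by 2.78 ± 0.15 (adjusted p = 2.43e-12). Jmjd1c (2.39 ± 0.16) and Kdm7a (2.12 ± 0.13), both of the demethylase family, were called up, and Kmt5c, a methyltransferase of histone H4, fell, with a log2 fold change of -2.04 ± 0.19 (adjusted p = 5.42e-09).

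Metabolic genes split by pathway. Glycolysis and its transporters had 12 of 16 up and 2 down (median 0.80). Hk2, the hexokinase that starts glycolysis in muscle, had 268, 254, 308 and 300.2 CPM in the T120 libraries, against 18.8, 11.997, 20.4 and 11.4 CPM in the T0 libraries, with no overlap, and rose by 4.21 ± 0.31 (adjusted p = 1.41e-10). The lactate transporter gene Slc16a1 rose by 2.69 ± 0.18, the glucose transporter gene Slc2a1 by 2.56 ± 0.32 and the phosphofructokinase gene Pfkp by 2.30 ± 0.16. Nuclear-encoded subunits of the respiratory chain leaned downward: 36 of 66 fell and 8 rose (median -0.48), against 39.5% and 37.3% of all genes. After 4-gene background subtraction 33 were down and 1 up, against 23.5% and 27.7% of all genes. By library totals 48 were down and 1 up, against 52.4% and 25.7% of all genes. Ndufv3, of complex I, had 21.6, 22.8, 29.2 and 23.1 CPM in the T120 libraries, against 96.7, 85.5, 95.5 and 102 CPM in the T0 libraries. Its T120 libraries were at most 29.2 CPM and its T0 libraries at least 85.5 CPM, and it fell, with a log2 fold change of -1.97 ± 0.17 (adjusted p = 2.19e-09). Ndufa3 fell, with a log2 fold change of -1.41 ± 0.26, Ndufs3 with -1.29 ± 0.19 and Ndufv2 with -1.20 ± 0.21. The table lists 0 mitochondrially encoded genes. Of 25 lipid genes 13 rose and 8 fell (median 0.74), against 37.3% and 39.5% of all genes. The rises included the sterol synthesis genes Sqle (2.84 ± 0.34) and Hmgcs1 (2.17 ± 0.25), which SREBP2 controls. Cd36 (2.72 ± 0.39), which takes up fatty acids, and Fabp4 (2.51 ± 0.42), which carries them, rose too. Both are also expressed by capillary endothelium, whose 7 listed markers summed to 371 to 695 CPM at T120 and 189 to 307 CPM at T0, and the part of such cells was not tested. Cpt1a, the gate of fatty acid oxidation in mitochondria, fell, with a log2 fold change of -1.17 ± 0.22 (adjusted p = 6.38e-05).

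The cells' myogenic state had changed by T120. Myod1, which commits satellite cells to the muscle lineage, had 1073, 876, 875 and 919 CPM in the T120 libraries, against 98.0, 79.5, 63.1 and 85.3 CPM in the T0 libraries. All T120 libraries exceeded 800 CPM and no T0 library reached 100 CPM, and Myod1 rose by 3.52 ± 0.21 (adjusted p = 8.32e-12). At T60 it still averaged 96.4 CPM, and T120 against T60 gave a log2 fold change of 3.28 ± 0.21 (adjusted p = 7.73e-10). Pax7 had 478, 313, 408 and 311 CPM in the T120 libraries, against 1523, 1321, 1463 and 1067 CPM in the T0 libraries. Its T120 libraries all lay below T0, and it fell, with a log2 fold change of -1.83 ± 0.16 (adjusted p = 2.54e-09). Against T60 its log2 fold change was -2.07 ± 0.16 (adjusted p = 7.66e-09). Myf5, the other early myogenic factor, had 278, 295, 219 and 363 CPM in the T120 libraries, against 205, 320.4, 211 and 236 CPM in the T0 libraries, with overlap, and was not called (0.25 ± 0.17, adjusted p = 0.181). Des, the intermediate filament desmin, averaged 1447 ± 208 CPM at T120 and 445 ± 58.9 CPM at T0 (SD, n = 4 each) and rose by 1.70 ± 0.14. Msc, a repressor that binds the same E-boxes as Myod1, rose by 2.92 ± 0.19. Myog, the differentiation factor, had 0.427, 5.64, 2.95 and 2.01 CPM in the T120 libraries, against 25.4, 17.4, 3.07 and 47.3 CPM in the T0 libraries. It was called down (-3.15 ± 0.97, adjusted p = 0.00571) although library 0C was as low as the T120 libraries. In all, 9 of 16 commitment genes rose and 5 fell (median 0.51), against 37.3% and 39.5% of all genes.

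Genes of satellite cell identity and quiescence were split, with 11 of 36 up, 16 down and 9 not called (median -0.26), so that the falls were close to the 39.5% of all genes. This closeness depends on the processing. After 4-gene background subtraction 18 were down and 7 up, against 23.5% and 27.7% of all genes. Library totals gave 22 down and 7 up, against 52.4% and 25.7% of all genes. Foxo3, a factor needed to keep stem cells quiescent, had 103, 79.0, 89.7 and 69.9 CPM in the T120 libraries, against 276, 415, 259.8 and 395 CPM in the T0 libraries, without overlap, and fell, with a log2 fold change of -1.98 ± 0.20 (adjusted p = 1.39e-08). Foxo1 fell, with a log2 fold change of -1.35 ± 0.13. The Notch effector genes Hes1, Hey1 and Heyl fell, with log2 fold changes of -1.90 ± 0.33, -0.74 ± 0.14 and -0.71 ± 0.14, whereas the receptor gene Notch1 rose by 0.76 ± 0.14. Gas1, a membrane protein of growth arrest, had 59.3, 40.9, 43.7 and 38.4 CPM in the T120 libraries, against 299.6, 622, 341 and 551 CPM in the T0 libraries. Its groups were far apart, and it fell, with a log2 fold change of -3.32 ± 0.28 (adjusted p = 8.92e-10). The surface markers Calcr and Cdh15 fell, with log2 fold changes of -0.79 ± 0.14 and -1.12 ± 0.15. Other surface genes were higher, among them the integrin genes Itga7 (0.77 ± 0.17) and Itgb1 (0.88 ± 0.12), Cxcr4 (0.79 ± 0.15) and Sdc4 (2.59 ± 0.18), a proteoglycan that binds growth factors. The calls of Itga7 and Cxcr4 were lost after 8-gene background subtraction. Vcam1 was not called (0.22 ± 0.17). Chodl, a C-type lectin gene, and Dtx4, a ubiquitin ligase gene of the Notch pathway, were among the largest losses in CPM. Dtx4 had 155, 148, 152 and 155 CPM in the T120 libraries, against 809.9, 940.1, 766 and 807 CPM in the T0 libraries. Its groups were far apart, with little spread in either, and it fell, with a log2 fold change of -2.44 ± 0.12 (adjusted p = 1.02e-12). Chodl averaged 348 ± 47.9 CPM at T120 and 1325 ± 406 CPM at T0 and fell, with a log2 fold change of -1.93 ± 0.20.

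Cell cycle genes were mixed as well: 8 of 25 rose, 8 fell and 9 were not called (median -0.25), near the 37.3% and 39.5% of all genes. The p21 gene Cdkn1a, which stops the cycle and is a target of p53, had 207, 116, 181 and 137 CPM in the T120 libraries, against 5.46, 6.95, 5.03 and 4.95 CPM in the T0 libraries, with no overlap, and rose by 4.84 ± 0.31 (adjusted p = 2.55e-11). The cyclin D genes Ccnd3 and Ccnd1 fell, with log2 fold changes of -2.01 ± 0.20 and -1.14 ± 0.31, and the helicase gene Mcm2 with -1.63 ± 0.40, a call lost after background subtraction, while Pcna rose by 1.52 ± 0.19. Rbl2, the quiescence-linked pocket protein p130, fell, with a log2 fold change of -1.60 ± 0.16. Among p53 targets 11 of 15 rose and 4 fell (median 1.18), with the stress genes Gadd45b (4.21 ± 0.32) and Plk3 (3.70 ± 0.30) up and Sesn1 down. At T120, 10 of the 15 were lower than at T60, against 32.0% of all genes.

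The deepest falls were of coding, non-coding and predicted genes. Bmyc, a relative of Myc that lacks its DNA-binding region, had 1.60, 1.96, 2.06 and 1.12 CPM in the T120 libraries, against 39.9, 34.3, 27.4 and 23.0 CPM in the T0 libraries, without overlap, and fell, with a log2 fold change of -4.21 ± 0.28 (adjusted p = 3.24e-11). Other-strand exons cover 62.8% of its exon bases. Tsc22d3, the glucocorticoid-induced leucine zipper, had 14.7, 13.97, 14.6 and 11.6 CPM in the T120 libraries, against 82.6, 327, 189 and 396 CPM in the T0 libraries. The T120 libraries were alike, the T0 libraries differed among themselves, with 0A lowest, and the groups did not overlap. Tsc22d3 fell, with a log2 fold change of -4.19 ± 0.44 (adjusted p = 2.67e-08). Nctc1, a non-coding RNA of the Igf2 and H19 locus, had 6.62, 6.99, 3.45 and 4.68 CPM in the T120 libraries, against 92.8, 100.5, 88.0 and 78.9 CPM in the T0 libraries, with no overlap, and fell, with a log2 fold change of -4.09 ± 0.20 (adjusted p = 7.99e-13). The lipase inhibitor G0s2 fell, with a log2 fold change of -3.53 ± 0.36, the adaptor gene Traf3ip3 with -3.39 ± 0.17, the zinc finger gene Zkscan8 with -3.59 ± 0.28 and the F-box gene Fbxw17 with -3.34 ± 0.37. The predicted genes Gm13703, Gm37699, Gm42892 and Gm17229 fell, with log2 fold changes of -3.70 ± 0.25, -3.53 ± 0.27, -3.46 ± 0.18 and -3.40 ± 0.21. All of these calls held after both background subtractions. The rule that picked these genes required no overlap and a call that held after 8-gene background subtraction. Neither is thus added evidence. Gm11399 was also called down, with -3.79 ± 1.08, and its call too held after both subtractions. Yet its T120 level came almost wholly from 120B, with 1.28, 15.2, 0.333 and 0.237 CPM in the T120 libraries, against 76.4, 22.1, 76.8 and 33.5 CPM in the T0 libraries, the pattern of the background genes. A call that held after subtraction thus does not set a gene apart from the background.

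Of 15 glucocorticoid receptor targets 10 rose and 4 fell (median 1.23), against 37.3% and 39.5% of all genes. Against T60, 3 were up and 4 down. The 4 that fell were Tsc22d3, Klf15, a factor that governs amino acid use in muscle (-2.93 ± 0.34), Zbtb16, the zinc finger factor PLZF (-2.88 ± 0.23), and Fkbp5, a co-chaperone of the receptor (-1.97 ± 0.27). Zbtb16 had 79.3, 42.9, 80.5 and 45.9 CPM in the T120 libraries, against 372, 595, 346 and 522 CPM in the T0 libraries, without overlap. Fkbp5 had 25.0, 32.8, 27.0 and 42.0 CPM in the T120 libraries, against 71.9, 187, 95.0 and 144 CPM in the T0 libraries, without overlap and highest in 0B. The 10 that rose include Mt1, Mt2, Dusp1, Nfkbia and Errfi1, which belong to stress or feedback lists above as well.

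Of 15 clock genes 6 rose and 5 fell, near the shares over all genes (37.3% and 39.5%), and 5 rose and 7 fell by library totals (25.7% and 52.4% of all genes). After 4-gene background subtraction 5 rose and 6 fell (27.7% and 23.5% of all genes). The output factor Dbp had 6.30, 7.84, 7.17 and 2.07 CPM in the T120 libraries, against 88.6, 65.0, 61.7 and 82.1 CPM in the T0 libraries, with no overlap, and fell, with a log2 fold change of -3.70 ± 0.34 (adjusted p = 3.77e-09). Per3 and Bhlhe41, which repress the clock, fell, with log2 fold changes of -3.14 ± 0.26 and -3.29 ± 0.20. Cry1, another repressor, had 155, 106, 98.4 and 122 CPM in the T120 libraries, against 10.5, 7.13, 11.7 and 9.35 CPM in the T0 libraries, above T0 in all libraries, and rose by 3.65 ± 0.31 (adjusted p = 1.16e-09). Nfil3, which opposes Dbp at the same sites, rose by 3.20 ± 0.23, and Arntl, the activator BMAL1, by 2.14 ± 0.28. Per1 was not called (-0.27 ± 0.19), but it was called down by library totals (-0.65) and after 8-gene (-0.77) and 4-gene (-0.61) background subtraction. The sources used here give no time of day for either group, and its part in these values was not tested.

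Brakes of the insulin and PI3K pathway leaned downward: 14 of 21 fell and 6 rose (median -0.90), against 39.5% and 37.3% of all genes. After 4-gene background subtraction 12 were down and 4 up, against 23.5% and 27.7% of all genes. Pik3ip1, an inhibitor of the kinase, had 7.69, 8.46, 5.83 and 4.68 CPM in the T120 libraries, against 51.2, 78.9, 46.9 and 94.1 CPM in the T0 libraries. No T120 library reached 9 CPM and no T0 library was under 46 CPM, and it fell, with a log2 fold change of -3.38 ± 0.30 (adjusted p = 1.90e-09). Pik3r1, the regulatory subunit, averaged 129.9 ± 29.1 CPM at T120 and 736 ± 69.1 CPM at T0 (SD, n = 4 each) and fell, with a log2 fold change of -2.50 ± 0.17. Sesn1, which restrains mTORC1, fell, with a log2 fold change of -2.59 ± 0.19 and Txnip, which limits glucose uptake, with -2.67 ± 0.35. Not all members turned down: Trib1, a pseudokinase gene, rose by 4.19 ± 0.22 and Irs2, an adaptor that passes the insulin signal on, by 1.33 ± 0.24. Txnip had 68.6, 85.4, 59.2 and 69.7 CPM in the T120 libraries, against 539, 649, 151 and 460.2 CPM in the T0 libraries, and library 0C was the lowest of T0.

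Primary cilium and centrosome genes, which build the antenna that quiescent satellite cells carry, had 29 of 34 members down, 3 up (Cep83, Arl13b and Ttbk2) and 2 not called (median -1.20). Cep250, a centrosome linker, had 46.1, 47.5, 41.5 and 30.8 CPM in the T120 libraries, against 153, 159, 152 and 163 CPM in the T0 libraries. Both groups were tight and far apart, and it fell, with a log2 fold change of -1.92 ± 0.11 (adjusted p = 8.24e-12). Ift81, of the transport train in the cilium, fell, with a log2 fold change of -2.16 ± 0.13, Cep97, which caps centrioles, with -2.31 ± 0.17, and Cep164, of the centriole appendages, with -1.80 ± 0.18. Cep164, Cep97 and the raised Cep83 and Ttbk2 were not called after 4-gene background subtraction. That subtraction left 18 of the 34 down and 1 up, against 23.5% and 27.7% of all genes. Against T60, 27 were down and 1 up (32.0% and 28.4% of all genes). Zinc finger genes of the Zfp series had 92 of 158 down and 35 up (median -0.60), against 39.5% and 37.3% of all genes. After that subtraction 49 were down and 22 up, against 23.5% and 27.7%. Against T60 they were split, with 51 up and 43 down (28.4% and 32.0% of all genes). Zfp386 had 10.0, 15.2, 8.61 and 11.4 CPM in the T120 libraries, against 89.4, 103, 74.3 and 83.6 CPM in the T0 libraries, without overlap, and fell, with a log2 fold change of -2.97 ± 0.18 (adjusted p = 1.24e-11). Zfp316 fell, with a log2 fold change of -3.05 ± 0.29 and Zfp839 with -2.85 ± 0.22. The falls in both lists moved with the lower background, whose part was not tested beyond these subtractions. F-box genes, the substrate adaptors of SCF ubiquitin ligases, had 16 of 30 down and 8 up, against 39.5% and 37.3% of all genes. Among them were Fbxo31 at -3.01 ± 0.19 and, upward, Fbxo30 at 2.69 ± 0.16 and Fbxo11 at 2.23 ± 0.17.

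**Figure D4:**
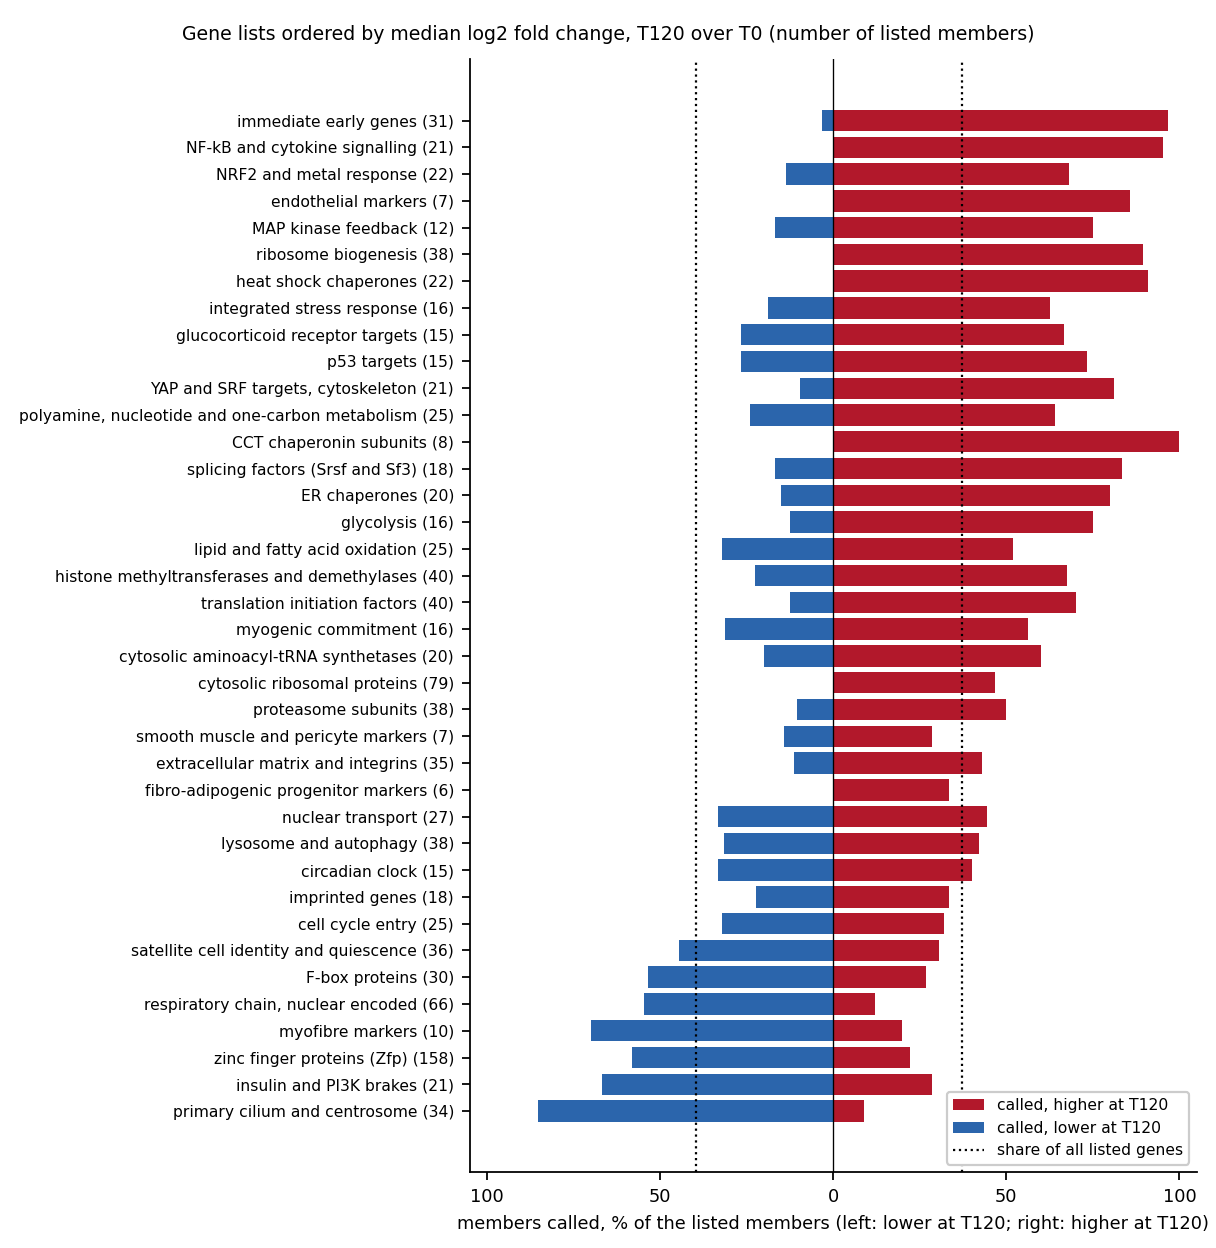
Share of each gene list's listed members that was called higher (red, right) or lower (blue, left) at T120 than at T0, in %, for lists of at least 5 members ordered by their median log2 fold change. Dotted lines mark the shares over all 8059 genes, 37.3% higher and 39.5% lower; CCT chaperonin, immediate early and NF-kB genes reach the farthest right and cilium genes the farthest left.

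Before background subtraction, matrix genes rose about as often as all listed genes and fell less often. Of 35 matrix and integrin genes 15 rose, 4 fell and 16 were not called (median 0.28), against 37.3% up and 39.5% down of all genes. Library totals gave 10 up and 12 down, against 25.7% and 52.4% of all genes. After 4-gene background subtraction 16 were up and 9 down, against 27.7% and 23.5% of all genes, so the lower share of falls did not hold there. Plaur, the receptor of urokinase, had 73.5, 50.0, 92.2 and 55.7 CPM in the T120 libraries, against 6.96, 2.61, 5.03 and 3.24 CPM in the T0 libraries, with no overlap, and rose by 3.97 ± 0.42 (adjusted p = 2.60e-08). Adamts4, a protease of proteoglycans, rose by 3.24 ± 0.35, and Itga5, the fibronectin receptor subunit, by 2.60 ± 0.21. Col3a1 was not called (-0.26 ± 0.19). Dystroglycan (Dag1), which ties the cell to laminin, fell, with a log2 fold change of -0.45 ± 0.18, with overlap between the groups. Imprinted genes had 6 of 18 up and 4 down, against 37.3% and 39.5% of all genes. Peg10 rose by 2.50 ± 0.29, and H19 and Peg3 fell, with log2 fold changes of -1.10 ± 0.21 and -0.47 ± 0.19, Peg3 with overlap between the groups. Among 38 lysosome and autophagy genes 16 rose and 12 fell (median 0.14), against 37.3% and 39.5% of all genes. Library totals gave 11 up and 20 down, near the 25.7% and 52.4% of all genes by that scaling. The autophagy receptor gene Sqstm1, which is an NRF2 target as well, had 1706, 1290.2, 1719 and 1639 CPM in the T120 libraries, against 171, 279, 177 and 230.3 CPM in the T0 libraries, without overlap, and rose by 2.89 ± 0.20 (adjusted p = 5.54e-11). Ulk1, the kinase that starts autophagy, rose by 1.75 ± 0.18, and Gabarapl1 and Atg2a, which act in autophagosome growth, by 1.67 ± 0.16 and 1.64 ± 0.12.

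Markers of other cells moved too. Of 7 listed endothelial markers 6 rose, 0 fell and Vwf was not called. Vwf was called up after 4-gene background subtraction but down by library totals (-1.21). Cdh5, the cadherin of endothelial junctions, had 136, 82.5, 147 and 40.5 CPM in the T120 libraries, against 26.5, 10.8, 20.4 and 19.2 CPM in the T0 libraries. 120A and 120C were highest, all T120 libraries lay above T0, and Cdh5 rose by 2.40 ± 0.51 (adjusted p = 2.20e-04). Pecam1 rose by 1.59 ± 0.43, Flt1 by 1.67 ± 0.46 and Kdr, with overlap, by 1.70 ± 0.55. Tek, which satellite cells express as well, had 0.40 ± 0.17, a call lost after background subtraction. Rgs5 and Myh11, of pericytes and smooth muscle, rose by 3.36 ± 0.36 and 2.21 ± 0.55, and together they came to 147 to 305 CPM at T120 and 20.7 to 46.1 CPM at T0. The other 5 members of that list were not called up: Notch3 fell, with a log2 fold change of -0.33 ± 0.14, and Acta2, Abcc9, Pdgfrb and Mcam were not called. Pdgfrb was called up after both background subtractions. The endothelial sums were 636, 487, 695 and 371 CPM in T120 libraries A to D, and Rgs5 with Myh11 had the same order of libraries. Of 6 fibro-adipogenic progenitor markers Dcn and Col1a1 rose (1.63 ± 0.51 and 0.92 ± 0.27) and 4 were not called, with summed levels of 1704 to 2120 CPM at T120 and 1578 to 2745 CPM at T0. Of 10 muscle fibre markers 7 fell and 2 rose, and 3 fell and 3 rose after 4-gene background subtraction. Ttn and Ryr1, which are long, fell, with log2 fold changes of -1.07 ± 0.30 and -1.36 ± 0.23, and lost the call after background subtraction, whereas Acta1, the actin of fibres, rose by 2.13 ± 0.47 at 36.2 CPM at T120 and 8.29 CPM at T0. In bulk RNA, more or fewer cells of a type and more or less RNA per cell cannot be told apart. The part of other cells in the falls and rises above was not tested.

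**Figure D5:**
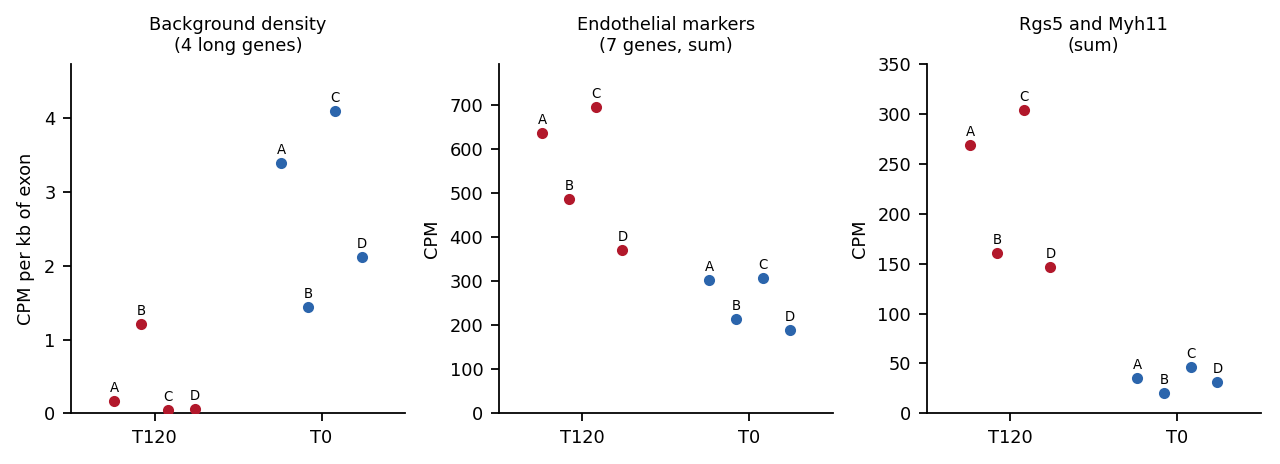
Background density over 4 long genes (CPM per kb of exon), summed level of 7 endothelial markers (CPM) and summed level of Rgs5 and Myh11 (CPM) in each T120 library (red, left) and T0 library (blue, right), lettered A to D. The background is higher in all T0 libraries than in the T120 libraries, among which 120B is highest at 1.21, and both marker sums are higher in all T120 libraries.

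Libraries of a group differed little for most genes: the median SD of log2 CPM was 0.195 at T120 and 0.172 at T0. The called genes with the largest spread at T120 were Muc16, Mroh2a, Gm37985, Gm11399 and Gm16026, each with 15.2 to 35.4 CPM in 120B and under 5 CPM in the other T120 libraries. These hold 2 of the 4 background genes. A call that held with all libraries but was lost when single libraries were left out belonged to 8 named genes (Cd68, Dag1, Klf10, Notch3, Peg3, Sf3a1, Sf3a3 and Tek), with adjusted p up to 0.184 in edgeR's test. The losses in CPM also include genes with too much spread for a call. Gm10800 had 2034, 4795, 17.2 and 62.8 CPM in the T120 libraries, against 5043, 4794, 6927 and 3341 CPM in the T0 libraries, and Gm42418 and 1110038B12Rik were not called either (-0.08 ± 0.25 and -0.75 ± 0.56).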

How the data were processed

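Bulk RNA-seq counts of muscle stem cells were analysed from 22 libraries, 4 each at T120 and T0. The deposited table holds whole-number counts per gene for each library, per the file headers. It also holds the authors' mean normalized count per gene (a score, used only to see that the lowest listed value was 98.4, so weakly expressed genes are missing) and 22 other per-sample columns that were not used. Per the submitters' processing notes the tools were cutadapt 1.11, featureCounts 1.4.5-p3 and DESeq2 1.18.1 with build mm10, and Cell Ranger 3.0.2 and Seurat 3.0.2 appear there too. The aligner, annotation release and strand setting are absent from the sources used here.

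Counts were fitted with edgeR 4.0.16 (R 4.3.3; TMM factors, quasi-likelihood test, time as a factor over 22 libraries). P-values were adjusted by the Benjamini-Hochberg method over 8059 genes, with a threshold of 0.05, and ± after a fold change is its standard error. Total counts over the listed genes were 8647622 to 20529272 at T120 and 2974294 to 9745758 at T0. Alternatives were DESeq2 1.42.0, limma-voom (limma 3.58.1), other scalings and filters, the 8 libraries alone, the library letter as a block, each library left out and subtraction of a background measured over 8 long genes. The 4-gene background was added after the data were seen. Tables and tests used Python 3.11.15 with pandas 2.3.3, scipy 1.17.1 and matplotlib 3.10.9.

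GENCODE vM21 gave exon lengths and positions for 8049 genes. Promoters came from RefSeq (GRCm38.p6) and matched 6141 listed genes. Genes with more than 1 start have more than 1 window, and a gene counts as holding a motif if any window does. In data simulated from the same libraries, the fit recovered 92% of 50 genes raised and 88% of 50 lowered by 1 on the log2 scale, and 16% and 22% at 0.5, with 5.22% false among the called. Few genes were changed in this simulation and all had the same dispersion, so these shares need not hold for the real data.

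Pairs of libraries of the same letter did not deviate together between the groups (correlations of -0.31 to -0.10), so the letters were not taken as pairs. Named genes are the 15 largest rises without overlap, the 15 largest falls without overlap that held after background subtraction, the 5 largest falls of all, the 10 largest gains and 10 largest losses in CPM, in each list the 4 called members with the largest change and its defining genes, and the 5 called genes with the largest spread at T120. Other genes named were chosen after their values were seen. Members, lists and tests were chosen with earlier results of these data known.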

Additional observations from a re-analysis of the deposited data

Results flagged for a closer look

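In a group of 4 libraries, 1 library was taken as standing apart when its gap to the nearest other library was a large share of the group's whole range. This held for 31 of 488 groups tested, and chance gives about 1 in 20. The share is given in parentheses. Library 120A was far above the others of its group for Hspa5 (0.851), Peg3 (0.910) and Srsf3 (0.952). Library 120B was far above the others of its group for Gm11399 (0.930), Gm16026 (0.878), Gm37985 (0.904), Mroh2a (0.936), Muc16 (0.953) and Pclo (0.913). Library 120B was far below the others of its group for Ahsa1 (0.943). Library 120C was far above the others of its group for Nfe2l2 (0.856). Library 120D was far above the others of its group for Aars (0.852), Ndufs3 (0.878) and Psmd11 (0.896). Library 120D was far below the others of its group for Cep164 (0.855), Sf3b2 (0.910) and Vwf (0.841). Library 0A was far above the others of its group for Cdh15 (0.834) and Prps1 (0.847). Library 0A was far below the others of its group for Atf6 (0.852), Hsf1 (0.858) and Runx1 (0.941). Library 0B was far above the others of its group for Chodl (0.847) and Malat1 (0.834). Library 0B was far below the others of its group for Myc (0.8294). Library 0C was far above the others of its group for Csrnp1 (0.872), Nolc1 (0.846) and Rps6 (0.975). Library 0C was far below the others of its group for Notch1 (0.998). Library 0D was far below the others of its group for Dcn (0.847). The background density over 4 long genes was highest in 120B as well (0.899). Muc16, Mroh2a and Pclo are among these 4 genes, and Gm11399, Gm16026 and Gm37985 moved with them. These genes were named for their spread at T120 or for the background, and the part of the background was not tested. With 120B left out, 2924 genes were called up and 3153 down at T120 against T0.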

How the results depend on the processing

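Of 4830 values of the 242 named genes under 20 alternatives, 4666 kept their direction and their side of the threshold, 83 lost the call, 28 gained one and 53 turned sign. The count of 3184 genes called down at T120 against T0 became 1948 after 8-gene and 1894 after 4-gene background subtraction. For T120 against T60, the 4864 called became 2207 and 2259, the 2289 up became 852 and 1127, and the 2575 down became 1355 and 1132. The dispersion of the fit rose with subtraction (biological coefficient of variation of 0.629 and 0.420, against 0.192), and the cause of the lost calls was not tested. Leaving out each library in turn gave 5966 to 6077 called at T120 against T0 (2882 to 2998 up, 2968 to 3153 down) and 4419 to 4822 against T60 (2166 to 2361 up, 2253 to 2544 down). The difference in background density of -2.98 CPM per kb ran from -3.37 to -2.71, each at an exact permutation p of 0.0571, the smallest that 3 against 4 libraries allow. Among named genes the calls lost when 1 library was left out (edgeR) were of Cd68 (120A, 120C, 0A, 0B, 0C or 0D; adjusted p up to 0.149), Dag1 (120A, 120D, 0A or 0B; 0.108), Klf10 (120D, 0A or 0B; 0.148), Notch3 (120B, 120C, 120D, 0B or 0C; 0.147), Peg3 (120B, 120C, 120D, 0A or 0B; 0.184), Sf3a1 (120A; 0.0537), Sf3a3 (120A, 0A or 0B; 0.0612) and Tek (120D or 0D; 0.139).

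With the library letter as a replicate block, 6182 genes were called at T120 against T0 (2977 up, 3205 down) and 4867 against T60 (2261 up, 2606 down). The block changed no call of a named gene, and no letter's T120 library deviated most like the T0 library of that letter.

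Named genes that lost the call, with the same sign, under 8-gene subtraction were Cd68, Cep164, Cep83, Cxcr4, Gm16026, Hsf1, Hspe1, Itga7, Keap1, Klf10, Mcm2, Mroh2a, Ryr1 and Tek. Under 4-gene subtraction they were Cd68, Cep164, Cep83, Cep97, Gm26917, Hsf1, Keap1, Klf10, Malat1, Mcm2, Pclo, Ryr1, Tek and Ttbk2. Gm37985 dropped out of the fit under both subtractions and has no value there. By library totals they were Cd68, Cep83, Col1a1, Gm26917, Hsf1, Malat1 and Tek. Calls gained with the same sign under 8-gene subtraction were of Chordc1, Col3a1, Pdgfrb, Per1, Polr1a and Tnfaip3. Under 4-gene subtraction Col3a1, Pdgfrb, Per1 and Polr1a gained one. Col3a1, Ddit3, Per1, Polr1a, Utp20, Vwf and Wdr12 gained one by library totals.

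The values that turned sign follow, on the log2 scale. With library totals the turned values were -0.32 for Abcc9, -0.072 for Acta2, -0.35 for Ahsa1, -0.15 for Chordc1, -0.13 for Ltv1, -0.13 for Myf5, -0.093 for Tnfaip3 and -0.16 for Vcam1. With leaving out 120A and 0C the turned values were -0.021 for Abcc9, -0.020 for Ahsa1, -0.038 for Tnfaip3, 0.10 for Utp20 and 0.028 for Wdr12. With 8-gene background subtraction the turned values were -0.22 for Acta2, -0.0076 for Gm26917, -0.12 for Ltv1, -0.093 for Malat1, -0.31 for Myf5, -0.28 for Vcam1 and 1.47 for Wdr12. With 4-gene background subtraction the turned values were -0.036 for Acta2, 5.54 for Dnah8, -0.0076 for Ltv1, -0.12 for Myf5, 0.91 for Ttn, -0.10 for Vcam1, 9.91 for Vwf and 0.40 for Wdr12. With DESeq2 size factors the turned values were 0.046 for Utp20 and 0.019 for Wdr12. With the filter of 100 counts the turned values were 0.031 for Utp20 and 0.0028 for Wdr12. With the 8 libraries alone the turned values were 0.031 for Utp20 and 0.0029 for Wdr12. With the replicate block the turned values were 0.0059 for Utp20. With DESeq2 the turned values were 0.047 for Utp20 and 0.020 for Wdr12. With limma-voom the turned values were 0.0097 for Utp20. With subtraction of a part of the background the turned values were 8.36 for Vwf and 0.23 for Wdr12. Leaving out 1 library turned the sign of 5 genes that were not called, whose values ran from -0.069 to 0.23 for Abcc9, from -0.0071 to 0.074 for Ahsa1, from -0.27 to 0.042 for Gm42418, from -0.053 to 0.075 for Utp20 and from -0.094 to 0.023 for Wdr12. Fitted values after subtraction depend on counts near 0, as for Vwf and Dnah8, and are no measure of size. Vwf passed the test at an adjusted p of 0.00244 in the 4-gene subtraction (edgeR). In data simulated at the libraries' own depth and number, changes of 0.5 on the log2 scale were recovered for 16% of raised genes. The simulation changed few genes and gave all the same dispersion, whereas 76.8% of genes were called here. The 16% thus does not say how many small changes were missed.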

Other observations

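The libraries between T0 and T120 place the changes in time. Values are mean CPM at T0, T15, T30, T60, T90 and T120, over 4, 4, 3, 4, 3 and 4 libraries, with no test. Fos had 7.93, 1269.8, 2607, 2128, 555 and 283 CPM, so that its highest mean was at T30. Egr1 had 42.0, 2296, 4908, 4563, 2294 and 1751 CPM, with the same peak and a slower fall. Fosl1 had 4.51, 1.95, 8.71, 80.6, 391 and 685 CPM, and was highest at T120. Hmox1 had 4.90, 3.30, 5.48, 4.07, 37.9 and 353 CPM, which put its rise after T60. Tsc22d3 had 249, 274, 54.2, 28.6, 14.4 and 13.7 CPM, with most of its fall between T15 and T30. Pax7 had 1344, 1416, 1664, 1588, 843 and 377 CPM, and no mean before T90 was below that of T0.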
